A study of Mus musculus with 8 samples.

Results

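The 10 genes described here encode the machinery that makes, senses, carries and destroys extracellular adenosine. They are 3 equilibrative nucleoside transporters (Slc29a1, Slc29a2, Slc29a3), 3 adenosine receptors (Adora1, Adora2a, Adora2b), 2 ecto-nucleotidases (Entpd1, Nt5e), adenosine deaminase (Ada) and adenosine kinase (Adk). They were taken by symbol from the 21833 symbols counted in gastrocnemius, a calf muscle of mostly fast fibres, and each of the 10 passed the filter on low counts. Bulk RNA sequencing covered 8 male C57BL/6J mice, 12 weeks old, that had received 100 µL of pooled serum from arthritic K/BxN mice into the peritoneum on day 0 and again on day 2. K/BxN serum carries autoantibodies that give the recipient a passing arthritis, so these mice, although labelled with the K/BxN genotype, were recipients of serum and not K/BxN mice themselves. For the RA mice (n = 4) the design text lists the serum alone. The RA+Dipy mice (n = 4) were also given dipyridamole daily at 25 mg/kg from day 0, and all muscles were collected on day 16. The treatment protocol in the labels names dipyridamole for all 8 samples, so the groups were taken from the titles. No source used here states the vehicle, and muscle without arthritis was not analysed here.

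Adenosine outside cells comes largely from ATP. CD39, the product of Entpd1, trims ATP and ADP to AMP, and CD73, the product of Nt5e, turns AMP into adenosine. Adenosine then acts on G protein-coupled receptors: A1 (Adora1) lowers cyclic AMP, while A2A (Adora2a) and A2B (Adora2b) raise it, A2B needing more adenosine than A2A. The signal ends when ENT1 (Slc29a1) and ENT2 (Slc29a2) let adenosine flow into the cell, where Adk phosphorylates it to AMP and Ada deaminates it to inosine. ENT3 (Slc29a3) works in lysosomes and other inner membranes. Dipyridamole blocks ENT1 and, more weakly, ENT2, and also inhibits several phosphodiesterases. The comparison of RA+Dipy with RA asks how the transcripts of the drug's own targets and of the rest of this pathway stood after daily dosing.

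Library totals ran from 16405268 to 50647761 counts over protein-coding genes. Myh4, whose myosin drives fast fibres, made up 2.11% to 6.06% of each library and Acta1, skeletal actin, 1.76% to 4.40%. RA replicate 4 and RA+Dipy replicate 1 lay far from the other 6 libraries: over 4757 genes with a mean of at least 20 CPM (counts per 1000000 counted reads, with each library's total scaled by TMM), 41.9% and 20.7% of genes were more than 2-fold from the 8-library median, against 0.0841% to 1.07% in the others. For each of the 10 adenosine genes, and for some of the other results, values without these 2 libraries are given too. Among markers of other cell types, the 9 macrophage markers summed to 114 to 273 CPM in RA and 156 to 321 CPM in RA+Dipy (7 of 9 with a higher mean in RA+Dipy), and the 7 markers of fibro-adipogenic progenitors, the stromal cells between fibres, to 681 to 961 CPM in RA and 832 to 1631 CPM in RA+Dipy (6 of 7 with a higher mean in RA+Dipy). Sums were 342 to 502 CPM in RA and 287 to 431 CPM in RA+Dipy (6 of 10 with a higher mean in RA+Dipy) for the 10 endothelial markers and 26.5 to 86.6 CPM in RA and 31.6 to 283 CPM in RA+Dipy (4 of 4 with a higher mean in RA+Dipy) for the 4 adipocyte markers. Red cell markers summed to 149 to 1545 CPM in RA and 153 to 799 CPM in RA+Dipy (4 of 6 with a higher mean in RA+Dipy), and those of Schwann cells to 171 to 465 CPM in RA and 114 to 203 CPM in RA+Dipy (0 of 5 with a higher mean in RA+Dipy). None of the markers in these 6 lists was at 0 in every library. In bulk tissue, fewer cells of a type and less RNA per cell cannot be told apart.

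None of the 10 adenosine genes passed the adjusted threshold of 0.05 between the groups (edgeR quasi-likelihood test, Benjamini-Hochberg adjustment over all genes; smallest adjusted p = 0.882), and neither did any other gene: 0 of 12755 tested, or 0%. DESeq2 and limma-voom also called 0; limma-voom with library weights called 133 genes (1.04%), none of them among the 10. The estimates farthest from equality among them were Adora2b, the low-affinity A2B receptor, at 2.00-fold in RA+Dipy, Nt5e at 1.77-fold, and Adora1, Slc29a1 and Slc29a2 at 0.664, 0.718 and 0.749-fold. At an unadjusted p under 0.05 stood 1 of the 10, Adora2b, against 488 genes or 3.83% of all genes tested (1 of the 10 by limma-voom, 2 by DESeq2). In TMM-scaled CPM, RA and RA+Dipy values fell into separate ranges for 2 of the 10, against 2.72% of all genes tested. These were Adora2b, with RA+Dipy higher (1.46% of all genes), and Slc29a2, with RA+Dipy lower (1.26%). Slc29a2 did not separate by plain library totals. By the fitted estimate 6 of the 10 were higher in RA+Dipy and 4 lower, with a median log2 fold change of 0.11, against 6654 higher and 6101 lower and a median of 0.023 over all genes tested.

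**Figure D1:**
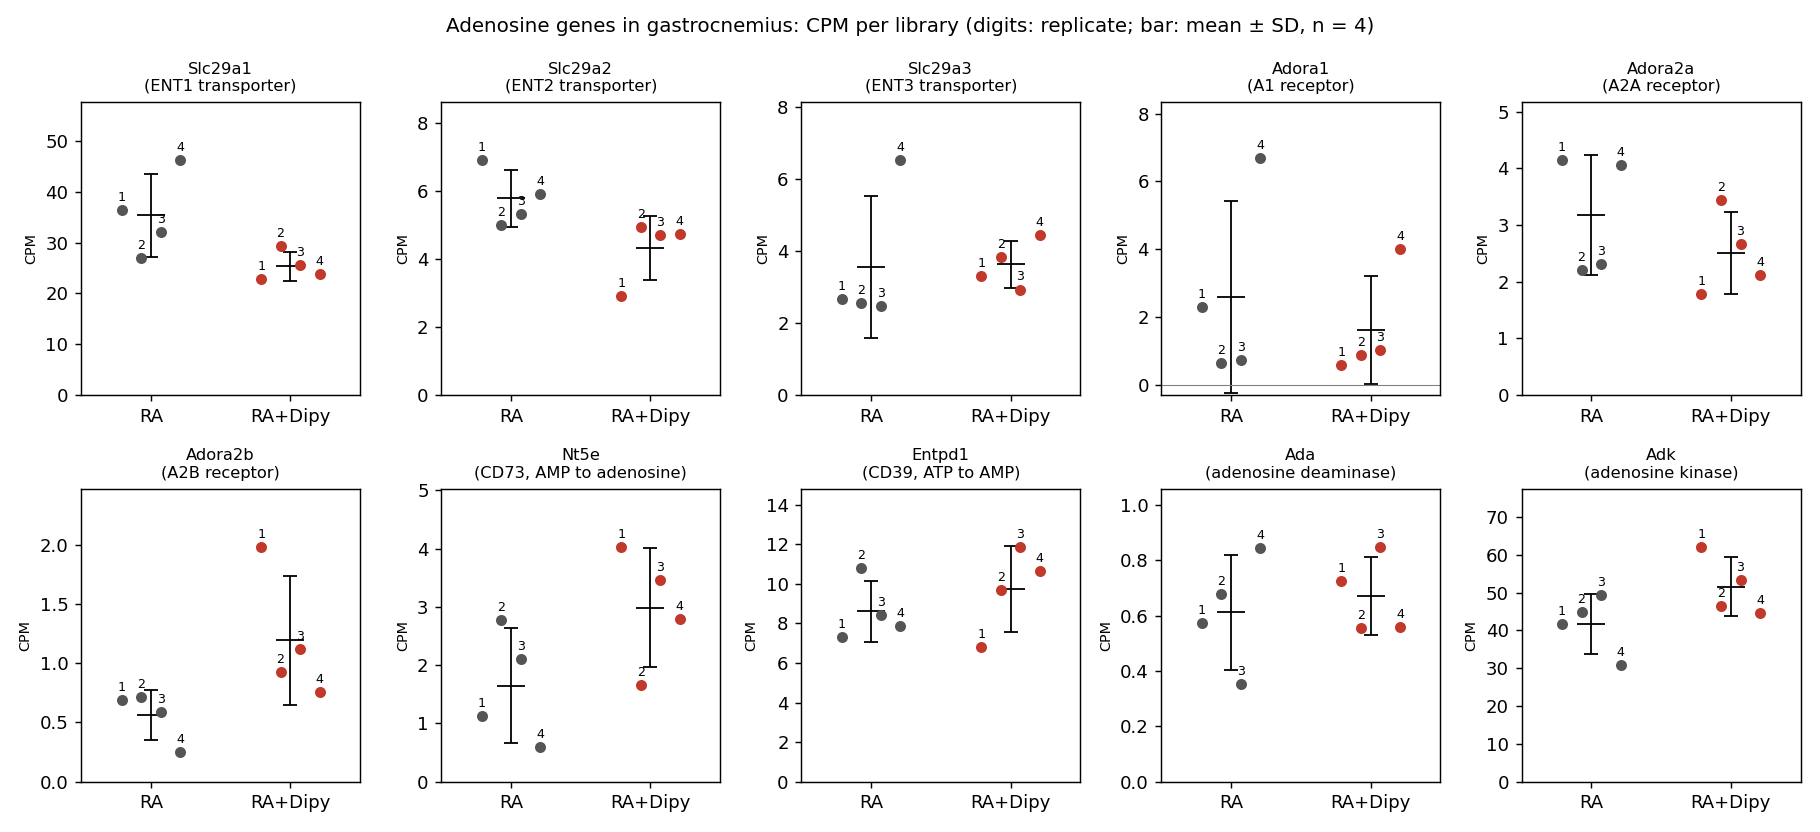
Level of each adenosine gene in CPM (vertical axis, linear) in the RA libraries (grey) and the RA+Dipy libraries (red); digits are replicate numbers, and the horizontal mark and bar are the mean ± SD (n = 4 each). In these TMM-scaled values the groups separate without overlap for Slc29a2 and Adora2b, and Adora1 reaches 6.68 CPM in RA replicate 4 and 4.00 CPM in RA+Dipy replicate 4.

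Slc29a1 encodes ENT1, the main target of dipyridamole (GRCm38 chromosome 17, 45585200 to 45599606, minus strand). It stood at 36.5, 27.0, 32.1 and 46.2 CPM in RA replicates 1 to 4 and at 22.9, 29.4, 25.6 and 23.8 CPM in RA+Dipy replicates 1 to 4. The 3 highest libraries were RA and the 3 lowest RA+Dipy, with 1 RA library, replicate 2, inside the RA+Dipy range. Means were 35.4 ± 8.18 CPM in RA against 25.4 ± 2.86 CPM in RA+Dipy (SD, n = 4 each), and the log2 fold change was −0.48 (SE 0.24, 95% interval −1.01 to 0.050, edgeR adjusted p = 0.882). Without RA replicate 4 the log2 fold change was −0.31, and without both outlying libraries −0.27 (adjusted p = 0.469; 0.108 to 0.996 over its 18 alternative settings). The 10 endothelial markers summed highest in RA replicate 4 (502 CPM) and lowest in RA+Dipy replicate 1 (287 CPM), but singly they did not move together. In RA replicate 4, 3 of the 10 were at their highest of the 8 libraries, among them Egfl7 (172 CPM) and Cldn5 (78.6 CPM), while 4 were at their lowest of RA there, Pecam1 (59.8 CPM), Cdh5 (15.7 CPM), Kdr (23.7 CPM) and Tek (9.47 CPM). The 6 red cell markers, from cells that carry much ENT1 protein, summed to 264, 149, 228 and 1545 CPM in RA and 799, 274, 199.5 and 153 CPM in RA+Dipy. They were highest in the 2 outlying libraries, 1 of which had the highest and 1 the lowest Slc29a1 in CPM. By plain library totals Slc29a1 was higher in RA replicate 1 (1851 of 50647761) than in RA replicate 4 (547 of 16718884, TMM factor 0.708). The 4 globin genes carried the red cell sums, and Alas2, the erythroid haem synthesis enzyme, was lowest of its group in both outlying libraries (0.169 and 0.594 CPM). The part of either list in the Slc29a1 values was not tested. An antisense gene, Gm17080, shares 275 of its exon bases (6.86%), and the counting did not use strand.

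Slc29a2, encoding ENT2 (chromosome 19, 5023860 to 5031972, plus strand), was the less abundant of the pair that dipyridamole blocks. It stood at 6.89, 4.98, 5.31 and 5.92 CPM in RA and at 2.90, 4.95, 4.70 and 4.72 CPM in RA+Dipy. In CPM every RA+Dipy library lay below every RA library, but the nearest values, 4.95 in RA+Dipy replicate 2 and 4.98 in RA replicate 2, were almost equal. The separation rests on the TMM factors, 0.708 in RA replicate 4 and 0.924 to 1.17 in the others. By counts over plain library totals the groups overlapped. RA replicate 4 (70 of 16718884) then lay below RA+Dipy replicate 2 (134 of 25371526), and RA replicate 3 (136 of 25673338) below RA+Dipy replicate 4 (118 of 21352550). The log2 fold change was −0.42 (SE 0.25, 95% interval −0.97 to 0.14, edgeR adjusted p = 0.882), and −0.26 without both outlying libraries. There the groups still did not overlap in CPM, as for 14.1% of all genes in those 6 libraries. The ratio of Slc29a1 to Slc29a2, per exon length, ran from 3.98 to 5.88 in RA and from 3.80 to 5.94 in RA+Dipy, so the balance of the ENT1 and ENT2 transcripts covered nearly the same range in both groups.

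Slc29a3, for the intracellular ENT3 (chromosome 10, 60712072 to 60752794, minus strand), showed how far 1 library can set a value. It stood at 2.66, 2.56, 2.46 and 6.51 CPM in RA and at 3.30, 3.84, 2.93 and 4.44 CPM in RA+Dipy. The first 3 RA libraries were the lowest of the 8 and RA replicate 4 was the highest. Over all 8 libraries the log2 fold change was 0.060 (SE 0.36, 95% interval −0.73 to 0.86, edgeR adjusted p = 0.971). Without RA replicate 4 it was 0.52, and Slc29a3 was then among the 3.93% of genes with an unadjusted p under 0.05. Without both outlying libraries it was 0.55 (adjusted p = 0.417; 0.197 to 0.999 over its 18 alternative settings), where 11.5% of all genes had an unadjusted p under 0.05. The summed macrophage markers were 114, 174, 171 and 273 CPM in RA and 321, 156, 292 and 276 CPM in RA+Dipy. RA replicate 4 had the highest sum of its group through C1qa (127 CPM) and C1qb (46.5 CPM). The list was not high there as a whole: 4 of its 9 markers were at their highest of RA in replicate 4, and Adgre1, Csf1r, Mrc1, Lyz2 and Cd163 were not. The part of macrophages in the Slc29a3 values was not tested.

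The receptors varied more than ENT1 and ENT2. Adora2b (chromosome 11, 62248984 to 62266453, plus strand) was counted with 35, 20, 15 and 3 reads in RA and 30, 25, 29 and 19 in RA+Dipy, or 0.689, 0.712, 0.586 and 0.254 CPM against 1.98, 0.923, 1.12 and 0.760 CPM. All 4 RA+Dipy libraries lay above all 4 RA libraries, and the extremes were the 2 outlying libraries, with RA replicate 4 the lowest and RA+Dipy replicate 1 the highest. Means were 0.560 ± 0.212 CPM in RA against 1.19 ± 0.543 CPM in RA+Dipy (SD, n = 4 each), with a log2 fold change of 1.00 (SE 0.42, 95% interval 0.074 to 1.93, edgeR adjusted p = 0.882). Without RA+Dipy replicate 1 the log2 fold change was 0.66, and without both outlying libraries 0.50 (adjusted p = 0.494; 0.120 to 0.996 over its 17 alternative settings). The 6 remaining libraries still did not overlap, as for 14.1% of all genes. At 3 to 35 reads a library, counting error is a large part of these values.

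Adora2a, the higher-affinity receptor that raises cyclic AMP (chromosome 10, 75316877 to 75334784, plus strand), gave 4.14, 2.21, 2.30 and 4.06 CPM in RA and 1.78, 3.43, 2.66 and 2.12 CPM in RA+Dipy. Its groups overlapped, with RA replicates 1 and 4 on top. The log2 fold change was −0.33 (SE 0.33, 95% interval −1.06 to 0.39, edgeR adjusted p = 0.882), and −0.086 without both outlying libraries.

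Adora1 (chromosome 1, 134199223 to 134235431, minus strand) was the most uneven of the 10: its SD over the 8 libraries, 1.26 log2 units, exceeded that of 98.4% of the genes tested. It stood at 2.28, 0.641, 0.742 and 6.68 CPM in RA and at 0.594, 0.886, 1.04 and 4.00 CPM in RA+Dipy. High values occurred in both groups, in RA replicates 1 and 4 and RA+Dipy replicate 4, while the other 5 libraries lay between 0.594 and 1.04 CPM. The estimate for RA+Dipy was a log2 fold change of −0.59 (SE 0.81, 95% interval −2.39 to 1.21, edgeR adjusted p = 0.889). It was 0.41 without RA replicate 4, 0.63 without both outlying libraries and −1.54 without RA+Dipy replicate 4, so no direction can be given.

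The summed adipocyte markers (Adipoq, Plin1, Lep, Cidec) came to 38.2, 26.5, 28.3 and 86.6 CPM in RA and 31.6, 50.5, 53.0 and 283 CPM in RA+Dipy. Within RA the order of the libraries by these markers was led by replicates 4 and 1, as for Adora1, and within RA+Dipy replicate 4 was highest for both. Across the groups the orders differed. RA+Dipy replicate 4 had the higher marker sum and RA replicate 4 the higher Adora1. RA replicate 1 had a lower marker sum than RA+Dipy replicates 2 and 3 but a higher Adora1 (2.28 against 0.886 and 1.04 CPM). The part of fat in the Adora1 values was not tested. Adora1 also shares 1162 exon bases (20.1% of its exon length) with Mybph, a muscle myosin-binding protein gene on the opposite strand, and the counting cannot separate strands there. Mybph stood at 152, 65.7, 79.5 and 12.2 CPM in RA and at 7.52, 45.4, 175 and 131 CPM in RA+Dipy. Of the 3 libraries high in Adora1, RA replicate 4 had the lowest Mybph of its group, RA replicate 1 the highest of its group, and RA+Dipy replicate 4 the next to highest. The part of Mybph reads in the Adora1 values was not tested.

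**Figure D2:**
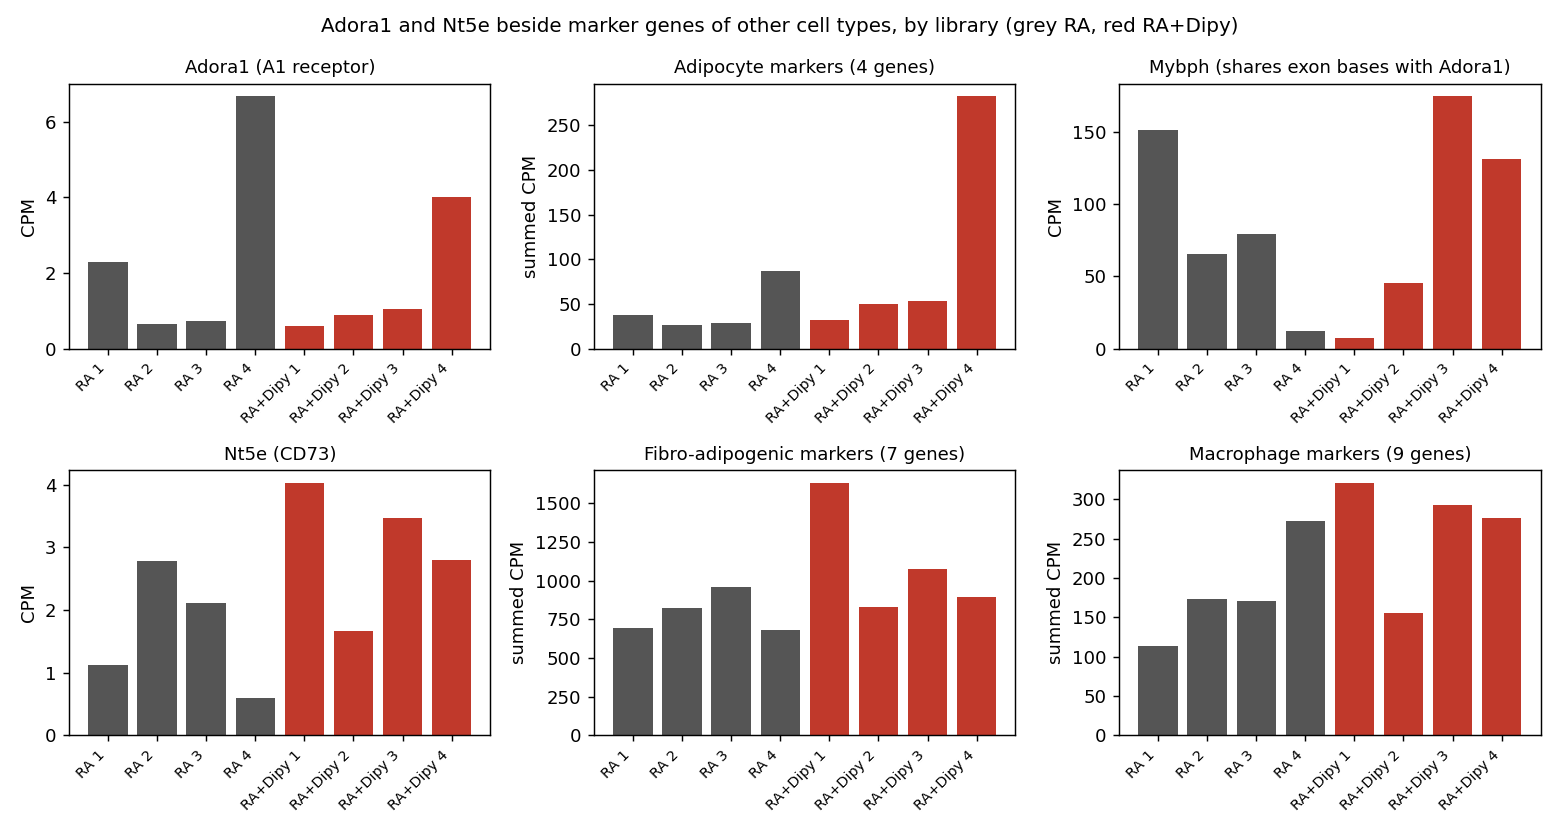
Bars give, for each of the 8 libraries (grey RA, red RA+Dipy), the CPM of Adora1, Mybph and Nt5e and the summed CPM of the adipocyte, fibro-adipogenic and macrophage markers (vertical axes linear, from 0). Adora1 and the adipocyte markers are both highest within their groups in replicate 4, and Nt5e and the fibro-adipogenic sum, most of which is Dcn, are both lowest in RA replicate 4 and highest in RA+Dipy replicate 1.

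Levels of the receptors can be set side by side after division by exon length. Adora2a made up 48.1% to 62.6% of the summed receptor level (Adora1, Adora2a, Adora2b and Adora3, CPM per kb) in RA and 32.8% to 62.5% in RA+Dipy. Adora2b made up 4.99% to 30.3% in RA and 22.7% to 60.4% in RA+Dipy. The top value was RA+Dipy replicate 1, the sole library in which Adora2b exceeded Adora2a, and the lowest RA replicate 4. Without these outlying libraries Adora2b made up 17.3% to 30.3% in RA and 22.7% to 35.5% in RA+Dipy. Adora1 took 8.69% to 41.9% and 5.78% to 38.1%. Adora3, for the A3 receptor, which lowers cyclic AMP, took at most 4.94% with 1 to 7 reads a library. The sum of the 4 was 2.16, 1.28, 1.21 and 2.75 CPM per kb in RA and 1.78, 1.79, 1.70 and 1.82 in RA+Dipy. The RA+Dipy sums lay inside the RA range and closer together, while their make-up differed between libraries.

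**Figure D3:**
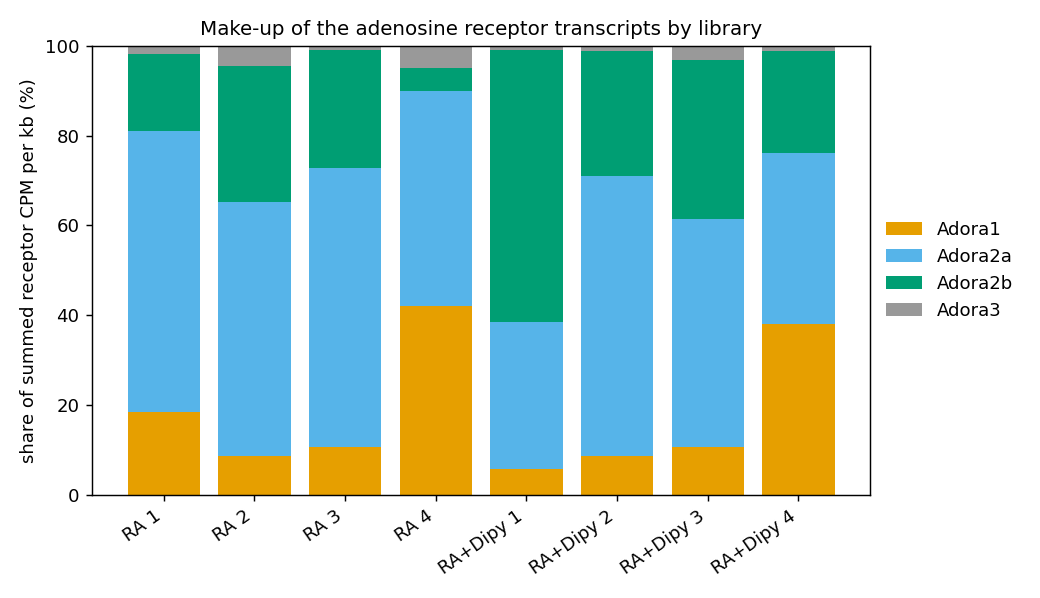
Stacked bars give the share (%) of Adora1, Adora2a, Adora2b and Adora3 in the summed receptor level (CPM per kb of exon) in each of the 8 libraries. Adora2b takes 60.4% in RA+Dipy replicate 1 and 4.99% in RA replicate 4, and Adora1 takes its largest shares in replicate 4 of each group.

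Of the enzymes that make adenosine, Nt5e (CD73; chromosome 9, 88327197 to 88372092, plus strand) differed more between the libraries than Entpd1. It stood at 1.12, 2.78, 2.11 and 0.592 CPM in RA and at 4.03, 1.66, 3.46 and 2.80 CPM in RA+Dipy. The groups overlapped through RA+Dipy replicate 2, which lay below RA replicates 2 and 3. Means were 1.65 ± 0.980 CPM in RA against 2.99 ± 1.02 CPM in RA+Dipy (SD, n = 4 each), with a log2 fold change of 0.82 (SE 0.46, 95% interval −0.19 to 1.84, edgeR adjusted p = 0.882). Without both outlying libraries it was 0.43 (adjusted p = 0.624; 0.114 to 0.996 over its 18 alternative settings), and without RA replicate 2 it was 1.18. The summed fibro-adipogenic markers stood at 693, 822, 961 and 681 CPM in RA and at 1631, 832, 1074 and 894 CPM in RA+Dipy, lowest and highest in the same libraries as Nt5e. That order came from Dcn, the decorin gene and the most abundant of the 7, at 357 CPM in RA replicate 4 and 1258 CPM in RA+Dipy replicate 1. The other 6 summed to 273, 263, 297 and 324 CPM in RA and 373, 340.5, 375 and 338 CPM in RA+Dipy. By that sum RA replicate 4 was the highest of its group, and Pi16 (94.6 CPM) and Dpt (64.7 CPM) were at their highest of RA there. Singly, 4 of the 7 markers were at their lowest of the 8 libraries in RA replicate 4, among them Dcn and Pdgfra (11.4 CPM). In RA+Dipy replicate 1, 3 of the 7 were at their highest of the 8, among them Dcn and Pdgfra (31.9 CPM). Another 2 were at their lowest of RA+Dipy there. The part of these cells in the Nt5e values was not tested.

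Entpd1 (CD39, chromosome 19, 40612366 to 40741602, plus strand) had the lowest SD over the libraries of the 10 genes, 0.289 log2 units, almost equal to that of Adk (0.293). Its values were 7.33, 10.8, 8.44 and 7.86 CPM in RA and 6.80, 9.67, 11.9 and 10.6 CPM in RA+Dipy, with wide overlap. Its log2 fold change was 0.18 (SE 0.25, 95% interval −0.38 to 0.74, edgeR adjusted p = 0.889), and 0.29 without both outlying libraries. Entpd1 exceeded Nt5e per exon length by 6.01 to 20.5 times in RA and 2.60 to 8.98 times in RA+Dipy. The 20.5 was RA replicate 4 and the 2.60 RA+Dipy replicate 1. Without these outlying libraries the ranges were 6.01 to 10.1 in RA and 5.28 to 8.98 in RA+Dipy.

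The enzymes that remove adenosine inside cells lay near opposite ends of the scale. Adk (chromosome 14, 21052574 to 21448569, plus strand) stood at 41.7, 44.8, 49.4 and 30.8 CPM in RA and at 62.0, 46.5, 53.3 and 44.6 CPM in RA+Dipy. Its extremes were again RA replicate 4 and RA+Dipy replicate 1, and the groups overlapped. For Adk the log2 fold change was 0.31 (SE 0.24, 95% interval −0.22 to 0.83, edgeR adjusted p = 0.882), and 0.10 without those 2 libraries.

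Ada (chromosome 2, 163726584 to 163750239, minus strand) was covered by 9 to 29 reads a library, at 0.571, 0.677, 0.351 and 0.845 CPM in RA and 0.726, 0.554, 0.847 and 0.560 CPM in RA+Dipy. The RA+Dipy values lay within or just above the RA range. Its log2 fold change was 0.17 (SE 0.37, 95% interval −0.65 to 0.98, edgeR adjusted p = 0.923), and 0.29 without both outlying libraries. Per exon length Adk exceeded Ada by 8.55 to 33.0 times in RA and by 14.8 to 20.1 times in RA+Dipy. The 8.55 was RA replicate 4, and the next lowest RA value was 15.5.

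**Figure D4:**
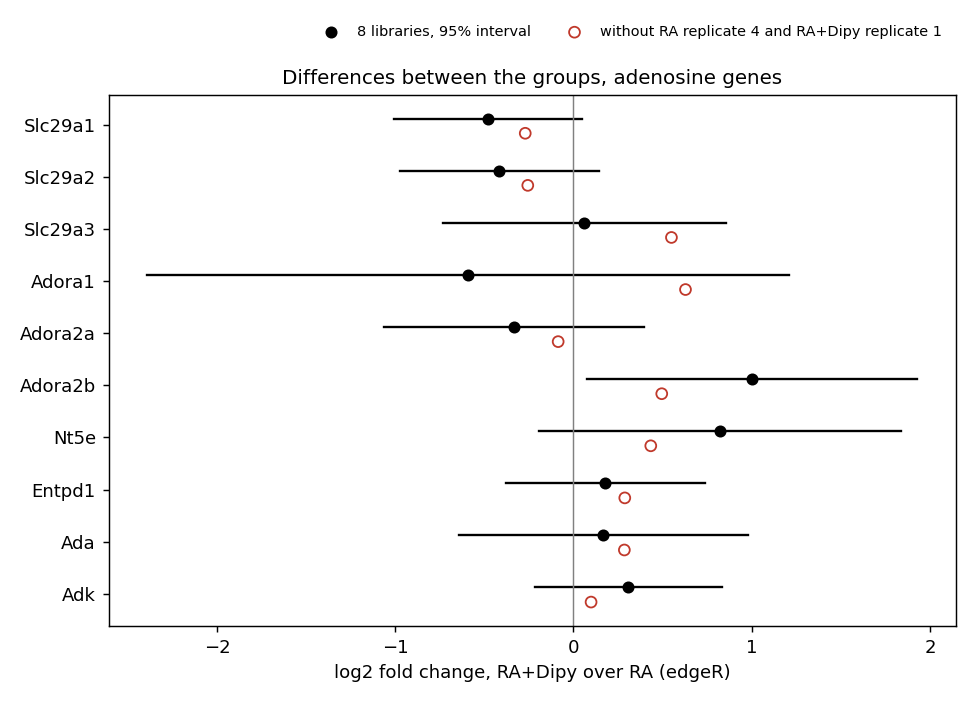
Log2 fold change of RA+Dipy over RA (horizontal axis) for each adenosine gene: black points and lines are the estimate from 8 libraries with its 95% interval, and open red circles the estimate without RA replicate 4 and RA+Dipy replicate 1. The interval of Adora2b (0.074 to 1.93) is the sole one that lies above 0, and Adora1 changes side when the 2 libraries are left out.

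Per exon length, the order of the 10 over all 8 libraries was led by Slc29a1 at 7.59 ± 1.95 CPM per kb and Adk at 5.47 ± 1.06 (SD, n = 8 libraries). These exceeded the next, Slc29a2 at 1.67 ± 0.377, in every library, by a median of 3.31 times for Adk. Slc29a1 was above Adk in 7 of 8 libraries with overlapping ranges. Slc29a2 and Entpd1 (1.64 ± 0.329) could not be ordered, Slc29a2 being higher in 3 of 8 libraries. Adora2a followed at 0.927 ± 0.299, below Entpd1 in 7 of 8 libraries, and then Slc29a3 at 0.615 ± 0.234. The 4 lowest, Adora2b at 0.476, Adora1 at 0.364, Ada at 0.320 and Nt5e at 0.270 CPM per kb, had overlapping ranges. Exon length here is that of all annotated exons joined, so a gene whose muscle transcript uses fewer of them is understated.

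**Figure D5:**
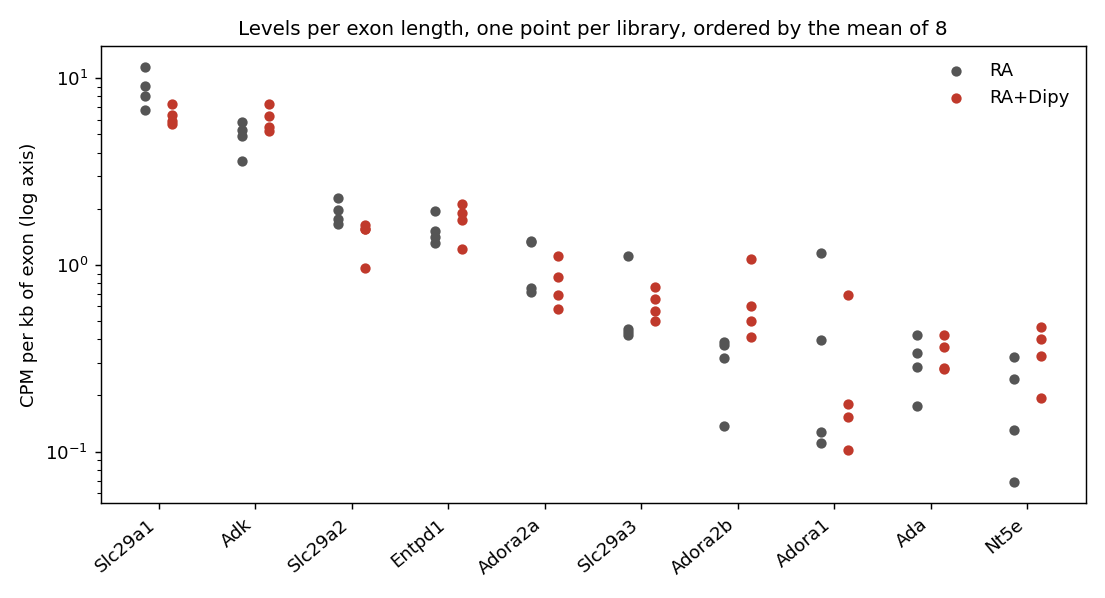
Level per exon length (vertical axis, CPM per kb, log axis) of each adenosine gene, 1 point per library (grey RA, red RA+Dipy), ordered by the mean of the 8 libraries. Slc29a1 and Adk lie above all other genes shown in every library, and the 4 lowest genes overlap.

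For each member, the tested genes with the most similar profile over the 8 libraries were found by the mean absolute difference in centred log2 CPM, given here in parentheses in log2 units. They were Irf2bp1 (0.0374) and Babam1 (0.0431) for Slc29a1, Paf1 (0.0605) and Dgcr2 (0.0704) for Slc29a2 and Podn (0.102) and Nrros (0.106) for Slc29a3. Adora2a was nearest to Lzts1 (0.0885) and 2210016L21Rik (0.111), and Adora2b to Atp6ap2 (0.144) and Stk17b (0.164). Adora1 was nearest to Slc25a1 (0.209) and Slc25a10 (0.271), the mitochondrial citrate and dicarboxylate carriers. Slc25a1 stood at 85.4 CPM in RA replicate 4 and 53.4 CPM in RA+Dipy replicate 4, against 7.13 to 19.3 CPM in the other 6 libraries. Nt5e was nearest to Ogn (0.123) and Aspn (0.126), both small leucine-rich proteins of connective tissue. Entpd1 was nearest to Ero1lb (0.0657) and Mta3 (0.0665), Ada to Scai (0.131) and Gli3 (0.132), and Adk to Fam204a (0.0633) and Mrrf (0.0661). The 8 libraries include the 2 outlying ones, which weigh on each of these distances.

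The rest of the pathway was read through 7 lists with 76 genes, of which 53 were tested. None passed the adjusted threshold in edgeR. With library weights in limma-voom 1 of the 53 passed, Adcy3, against 1.04% of all genes. Those weights were 0.110 for RA replicate 4 and 0.174 for RA+Dipy replicate 1, against 0.735 to 4.77 for the others. Of the 53, 31 had a higher estimate in RA+Dipy and 22 a lower one (median log2 fold change 0.068; 0.023 over all genes tested), and 5 had an unadjusted p under 0.05, against 3.83% of all genes. In TMM-scaled CPM the groups did not overlap for 3 of the 53, P2rx6, Adcy4 and Calhm2, each lower in RA+Dipy. Over all genes the share was 2.72% in either direction and 1.26% lower. Calhm2 is named because of this count, after its values were seen, and by plain library totals its groups overlapped.

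Of the 5 other transporters, 1 was tested. Slc28a2, the sodium-driven purine nucleoside carrier CNT2, averaged 4.42 ± 1.65 CPM in RA against 6.30 ± 2.37 CPM in RA+Dipy (SD, n = 4 each), with a log2 fold change of 0.50 (SE 0.37, edgeR adjusted p = 0.882). Among the other adenosine and ATP receptors, 10 of 16 were tested, 5 with a higher and 5 with a lower estimate. P2rx6, an ATP-gated channel subunit, ranged from 19.2 to 35.1 CPM in the 4 RA libraries and from 12.2 to 17.9 CPM in the 4 RA+Dipy libraries. Each RA+Dipy library lay below each RA library, with a log2 fold change of −0.78 (SE 0.26, edgeR adjusted p = 0.882), and −0.51 without both outlying libraries. P2rx6 shares 554 exon bases (13.9%) with Slc7a4 on the opposite strand.

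The other ecto-nucleotidases had 5 of 6 tested members higher, of 10 listed. Bst1, a surface enzyme that consumes NAD, averaged 0.417 ± 0.209 CPM in RA against 0.913 ± 0.376 CPM in RA+Dipy (SD, n = 4 each), with a log2 fold change of 1.21 (SE 0.49, edgeR adjusted p = 0.882). Of the 9 intracellular nucleotidases tested, 4 were higher and 5 lower. Entpd6 (log2 fold change −0.40, SE 0.25) and Nt5c (−0.34, SE 0.27) had the smallest p among them, each with an edgeR adjusted p = 0.882. The other adenosine-handling enzymes had 5 of 6 higher, among them Dpp4, which in some species anchors adenosine deaminase at the cell surface (log2 fold change 0.58, SE 0.38, edgeR adjusted p = 0.882), and Ahcyl1, a relative of the hydrolase that frees adenosine from S-adenosylhomocysteine (0.27, SE 0.23).

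Of the 6 ATP release channels tested, 3 were higher. Gja1, for connexin 43, stood at 5.46, 5.84, 7.77 and 2.03 CPM in RA and 7.72, 9.56, 8.97 and 10.9 CPM in RA+Dipy. The groups overlapped at RA replicate 3 and RA+Dipy replicate 1 alone. The log2 fold change was 0.80 (SE 0.36, edgeR adjusted p = 0.882), and 0.64 without both outlying libraries. Calhm2, a large-pore channel subunit, stood at 3.55, 3.20, 3.36 and 5.75 CPM in RA and 1.58, 2.62, 3.12 and 3.04 CPM in RA+Dipy, with a log2 fold change of −0.59 that came to −0.20 without both outlying libraries. By counts over plain library totals RA replicate 3 (86 of 25673338) lay below RA+Dipy replicate 4 (76 of 21352550), so the separation of Calhm2 rests on the TMM factors. The 15 G proteins and adenylyl cyclases tested, which carry the receptors' signal to cyclic AMP, split 8 higher and 7 lower. Adcy4, a cyclase that Gs activates, stood at 11.9, 11.4, 12.8 and 21.7 CPM in RA and 7.26, 8.31, 8.16 and 9.20 CPM in RA+Dipy, again with no overlap. Its log2 fold change was −0.81 (SE 0.27, edgeR adjusted p = 0.882), and −0.48 without both outlying libraries. Gna11, a Gq-class subunit, had a log2 fold change of −0.75 (SE 0.33, edgeR adjusted p = 0.882), and −0.30 without RA replicate 4, where it stood at 135 CPM against 38.7 to 58.8 CPM in the other 7.

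Promoter sequences were read for 9 of the 10 genes in RefSeq windows of GRCm38.p6 that run from 250 bases before each transcript start to 50 after it (19 windows). They were searched on both strands for the cyclic AMP response element TGACGTCA, since A2A and A2B act through cyclic AMP, for its shorter core TGACG, for the hypoxia response core ACGTG and for the CCAAT box. The shorter core lies within the full element. The full element was in 0 of 19 windows, and is in 1.79% of all 32851 windows of the table. Its shorter core was in 4 of 19 (20.8% of all windows), the hypoxia core in 4 of 19 (19.6%) and the CCAAT box in 8 of 19 (37.4%). Slc29a1 alone holds several of the 19 windows. Counted by gene, the shorter core was in 3 of 9 (23.0% of all genes of the table), the hypoxia core in 2 of 9 (21.8%) and the CCAAT box in 6 of 9 (41.1%). A match is a run of letters and not a bound site.

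The 100 bases before the start site are shown for Adora2b, the receptor whose groups did not overlap, and for Entpd1 and Adk. Each of the latter had a window with matches for both the CCAAT box and the shorter cyclic AMP core. Slc29a1 also had both, in separate windows, and is not shown. Capitals mark the searched motifs on either strand. The shorter core of the Entpd1 window, at −135 to −131, lies outside the stretch shown. In these stretches Adora2b and Entpd1 hold 1 CCAAT box each, and Adk holds a CCAAT box on each strand and 1 shorter cyclic AMP core. The stretches are chr11:62248884-62248983, chr19:40612266-40612365 and chr14:21052474-21052573, each on the plus strand, with 82.0%, 61.0% and 60.0% G and C.
Adora2b: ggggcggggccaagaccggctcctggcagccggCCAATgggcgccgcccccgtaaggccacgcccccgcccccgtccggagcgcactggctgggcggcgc
Entpd1: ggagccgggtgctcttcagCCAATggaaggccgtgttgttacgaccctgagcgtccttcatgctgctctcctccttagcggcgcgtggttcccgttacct
Adk: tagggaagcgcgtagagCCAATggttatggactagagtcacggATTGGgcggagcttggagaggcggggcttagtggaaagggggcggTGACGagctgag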

How the data were processed

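The authors deposited raw read counts per protein-coding gene, 1 table per library, not normalized. By the design text and the submitters' processing notes, 100 nt single-end reads went through fastp 0.20.0, STAR 2.7.3a (GRCm38.p6) and HTSeq in non-stranded mode, although the design text names a directional kit; no source used here states the annotation release. Counts of 24 symbols on more than 1 line were summed. Genes were kept by filterByExpr (minimum count 10), which left 12755. Groups were compared with the two-sided quasi-likelihood test of edgeR 4.0.16 (TMM, robust, group as sole term, R 4.3.3), with a threshold of 0.05 after Benjamini-Hochberg adjustment. The test was also run on simulated data, but the size of difference it can find at the spread of these libraries is not given here. CPM use TMM-scaled totals of the tested genes. A count of 0 allows up to 0.0591 to 0.254 CPM (3 counts, counting error only). Lengths and positions come from GENCODE vM21 (GRCm38). Named were the 10 members, Adora3, Slc29a4, Myh4, Acta1, the 2 genes nearest each member, and in each pathway list the genes with an unadjusted p under 0.05 or otherwise the 2 with the smallest p. Of the pathway lists, Slc28a1, Calhm2 and Adcy3 were named outside this rule. Members and lists were chosen with earlier results of these data known. Alternatives were other scalings, filters and tools (DESeq2 1.42.0, limma 3.58.1), a replicate block and left-out libraries. Libraries of a group differed by more than sampling noise (smallest chi-square per degree of freedom 29.7). The design text gives 4 mice per group; that each library came from 1 mouse is taken from it.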

Additional observations from a re-analysis of the deposited data

Results flagged for a closer look

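Of 20 groups of 4 values (10 genes in each group), 3 held a library whose gap to its nearest neighbour took up more of the group's range than Dixon's 95% critical value allows; chance alone would mark about 1 in 20. Slc29a2 was at 2.90 CPM in RA+Dipy replicate 1, below the other 3 RA+Dipy libraries (4.70 to 4.95). Slc29a3 was at 6.51 CPM in RA replicate 4, above the other 3 RA libraries (2.46 to 2.66). Adora1 was at 4.00 CPM in RA+Dipy replicate 4, above the other 3 RA+Dipy libraries (0.594 to 1.04).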

How the results depend on the processing

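None of the 10 adenosine genes passed the adjusted threshold under any of 18 alternatives (17 for Adora2b and Ada, which a mean of at least 1 CPM removes); the smallest adjusted p was 0.102, for Entpd1 with library weights in limma-voom. Over all genes, that setting called 111 higher and 22 lower, and 1 pathway gene, Adcy3 (log2 fold change 1.65, adjusted p = 0.0340; 0.0340 to 0.996 over the alternatives). The other 17 called 0. The estimate kept its sign under every alternative for 7 of the 10 genes. Adora1 turned to 0.12 with library weights and to 0.63 without both outlying libraries, and ran from −1.54 to 0.41 when single libraries were left out; that range was −0.086 to 0.52 for Slc29a3 and −0.033 to 0.33 for Ada. The cause was not tested. Leaving out single libraries gave 0.66 to 1.17 for Adora2b, 0.60 to 1.18 for Nt5e, −0.59 to −0.31 for Slc29a1 and −0.49 to −0.27 for Slc29a2. At an unadjusted p under 0.05 there were 177 to 1182 genes when single libraries were left out, against 488. Deviations of same-numbered libraries from their group means correlated over genes at −0.20, 0.11, 0.15 and −0.27. The 2 outlying libraries, which differ in number, correlated at 0.35. They weigh on the group means behind all these values, so a pairing by replicate number was neither shown nor excluded. With the replicate number as a block 0 genes were called, 165 had an unadjusted p under 0.05, and the log2 fold change was 1.06 for Adora2b and 0.96 for Nt5e. Depth limits Adora2b, Ada, Adora1 and Nt5e, with under 20 reads in some libraries.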

Other observations

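Several genes that move or sense adenosine elsewhere were near the limit of detection in this muscle and were left untested. Adora3, the A3 receptor, had 7, 6, 1 and 6 reads in RA replicates 1 to 4 and 1, 2, 5 and 2 in RA+Dipy; 779 of its exon bases (20.9%) are shared with Tmigd3 on the same strand. Slc29a4, a transporter of monoamines and adenosine, had 1, 6, 2 and 4 reads in RA and 0, 3, 2 and 3 in RA+Dipy. Slc28a1, the pyrimidine-preferring sodium-driven carrier and outside the rule for naming, had 33, 8, 7 and 8 reads in RA and 2, 5, 5 and 8 in RA+Dipy. Its means were 0.471 ± 0.222 CPM in RA against 0.207 ± 0.0798 CPM in RA+Dipy (SD, n = 4 each), with overlapping groups.

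Adcy3, an adenylyl cyclase outside the rule for naming and singled out after its values were seen, stood at 0.492, 0.783, 0.469 and 1.27 CPM in RA and 0.462, 1.44, 1.54 and 2.44 CPM in RA+Dipy. RA+Dipy replicate 1 was the lowest of the 8 and RA replicate 4 the highest of its group. These were the libraries with the smallest weights in the limma-voom setting that called Adcy3. Over 8 libraries the log2 fold change of Adcy3 was 1.05 (SE 0.50, 95% interval −0.070 to 2.17, edgeR adjusted p = 0.882). It shares 1380 exon bases (22.1%) with Cenpo on the opposite strand.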
